A study of Mus musculus with 2 samples.

Results

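The adult globin genes Hba-a1, Hba-a2, Hbb-bs and Hbb-bt and the haem synthesis genes Alas1, Alas2, Cpox and Fech were followed in mouse liver sections. The 8 genes were chosen by symbol, and 7 of them had a row among the 19465 genes of the files. Hba-a1 was not analysed here. Gene expression was measured on 1 liver section of an AEG-1-WT mouse and 1 of an AEG-1-C75S mouse by 10x Visium spatial transcriptomics of formalin-fixed, paraffin-embedded tissue. In this assay, pairs of probes that sit next to each other on an RNA are ligated, caught by position-coded spots on a glass slide, and each molecule is counted once by its unique molecular identifier (UMI). Both mice were untreated (naïve) females of 8 weeks, littermates from a mating of heterozygotes, and identical lobes were cut at 5 μm. AEG-1-C75S mice carry, in all their cells, a CRISPR knock-in that turns a cysteine of AEG-1 into serine, and AEG-1-WT mice carry the unedited allele. A spot sums the RNA of all the cells that lie on it. There was 1 animal for each genotype, so ratios between the sections compare 2 libraries and carry counting intervals only, without a test.

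Haemoglobin carries oxygen in red blood cells as a tetramer of alpha chains (Hba-a1, Hba-a2) and beta chains (Hbb-bs, Hbb-bt), each holding a haem. Haem is made from glycine and succinyl-CoA in a chain of enzymes that starts in mitochondria with 5-aminolevulinate synthase, encoded by Alas1 in most tissues and by Alas2 on the X chromosome in red cell precursors. Coproporphyrinogen oxidase (Cpox) and ferrochelatase (Fech, which inserts the iron) act late in the chain. Hepatocytes make haem mainly for cytochrome P450 enzymes and repress Alas1 through haem, whereas globin mRNA in adult liver is usually taken as a sign of blood left in the vessels.

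In the RefSeq annotation of GRCm38.p6, the alpha globin genes lie side by side at chr11:32283672-32284486 (Hba-a1) and chr11:32296492-32297310 (Hba-a2), and the beta globin genes at chr7:103826523-103827928 (Hbb-bs) and chr7:103812524-103813923 (Hbb-bt). Alas1 lies at chr9:106233455-106247954, Cpox at chr16:58670208-58680391 and Alas2 at chrX:150547417-150570622. The globin copies are printed first because their near identity limits what a globin count can tell apart. In the GENCODE vM21 transcripts, the coding sequences of Hba-a1 and Hba-a2 (426 bases without the stop codon) differed at 1 base, C381T, and those of Hbb-bs and Hbb-bt (441 bases) at 1 base, C417T, counted from the first base of the start codon with the first-named gene first. The stretches around these bases, with the differing base in capitals, read as follows.
Hba-a1, coding bases 361 to 401: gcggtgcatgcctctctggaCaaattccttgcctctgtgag
Hba-a2, coding bases 361 to 401: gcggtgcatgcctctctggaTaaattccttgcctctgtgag
Hbb-bs, coding bases 397 to 437: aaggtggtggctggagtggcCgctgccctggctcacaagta
Hbb-bt, coding bases 397 to 437: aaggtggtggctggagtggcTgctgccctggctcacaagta
Of all windows of 25 bases in the Hba-a2 mRNA, 92.3% also occurred in the Hba-a1 mRNA, and 60.2% of those of Hbb-bt occurred in Hbb-bs. The positions of the probes are not given in the sources used here. UMIs assigned to Hba-a2 may therefore include RNA of Hba-a1, and the split between Hbb-bs and Hbb-bt is uncertain.

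The bases just before the transcript start are shown for Hba-a2, Hbb-bs, Alas2 and Cpox, because these members are set side by side below, in the same spots or along the lobule. They come from RefSeq on GRCm38.p6, read 5′ to 3′ on the strand of the gene, with capitals for matches on either strand to one of 2 forms of the GATA motif (form 1 is AGATAA, and form 2 reads TGATAA), to the letters CACCC of the box bound by KLF factors, to the CCAAT box and to the TATA box, searched as TATAA. No matches overlapped.
Hba-a2, chr11:32296342-32296491, plus strand: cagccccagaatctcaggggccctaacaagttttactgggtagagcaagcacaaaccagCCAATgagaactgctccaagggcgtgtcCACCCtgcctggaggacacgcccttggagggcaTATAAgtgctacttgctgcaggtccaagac
Hbb-bs, chr7:103827929-103828078, minus strand: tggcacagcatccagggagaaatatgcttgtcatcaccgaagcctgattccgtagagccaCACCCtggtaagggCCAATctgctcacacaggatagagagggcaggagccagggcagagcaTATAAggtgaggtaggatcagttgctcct
Alas2, chrX:150547267-150547374, plus strand: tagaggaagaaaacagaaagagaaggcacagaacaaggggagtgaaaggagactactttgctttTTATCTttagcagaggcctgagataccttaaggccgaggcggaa
Cpox, chr16:58670058-58670207, plus strand: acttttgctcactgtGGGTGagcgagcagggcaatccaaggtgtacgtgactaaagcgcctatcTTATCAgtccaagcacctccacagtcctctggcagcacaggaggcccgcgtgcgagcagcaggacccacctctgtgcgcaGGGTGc
Hba-a2 and Hbb-bs each held 1 match to all 3 boxes, with the TATA box at 30 and 29 bases before the start. Alas2 held form 1 of the GATA motif and Cpox held form 2, both on the opposite strand at 86 bases before the RefSeq start. The CACCC box also matched on the opposite strand of Cpox, at 135 and 6 bases before that start. In Alas2 it matched there at 40, 35 and 30 bases, within the last 42 bases before the start, which are not shown. Over 150 bases before 32817 RefSeq starts, the CACCC box occurred in 37.4%, the CCAAT box in 24.5%, the TATA box in 14.2%, form 1 of the GATA motif in 5.65% and form 2 in 4.46%. The nuclear receptor site AGGTCA (8.59% of starts), the E-box CACGTG (4.30%) and the NRF1 core GCGCATGC (1.83%) were also searched, and had no match in these windows. Both Alas1 windows of that length had no match to any of the motifs.

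The AEG-1-WT section had 2309 spots with at most 50000 UMIs, which held 42246988 UMIs (median 16830 per spot), and the AEG-1-C75S section had 2163 such spots with 41674347 UMIs (median 18808). Spots of 5% to 95% of the rank lay between 11460 and 29951 UMIs in AEG-1-WT and between 6599 and 33880 in AEG-1-C75S, a wider range. The sections shared 1896 barcodes, which mark positions on a slide and not cells. Hepatocyte markers were high in both, with a summed level of Alb, Apoa1, Ttr and Serpina1a of 170155 and 175065 counts per 1000000 UMIs (CPM). Of the red blood cell markers that define the cell type, Epb42, Rhag and Trim58 had 0 UMIs in both sections, and Slc4a1 had 1 in each. The 23 of 24 such markers with a row summed to 63.5 and 60.3 CPM, and of these Car1, Bpgm, Tmcc2 and Tspan33, which other cells also express, made up most. The embryonic globins Hba-x, Hbb-y, Hbb-bh1 and Hbb-bh2 had 0 UMIs in both sections, and 8 genes of tissues other than liver summed to 1.25 and 1.34 CPM. Each member was above that sum in both sections.

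Globin counts were lower in AEG-1-C75S when UMIs were summed over the section, but little or not lower when every spot had the same weight. Hbb-bs, a beta globin, had 17144 UMIs in AEG-1-WT (406 CPM, 95% exact Poisson interval 400 to 412) against 11186 in AEG-1-C75S (268 CPM, 263 to 273), a log2 ratio of -0.60 (-0.63 to -0.56). With equal weight per spot its level was 367 CPM in AEG-1-WT and 342 CPM in AEG-1-C75S, a log2 ratio of -0.10. The alpha globin Hba-a2 had 7918 UMIs (187 CPM) and 5111 UMIs (123 CPM), a log2 ratio of -0.61 (-0.66 to -0.56), and with equal weight 170 and 154 CPM, a log2 ratio of -0.14. Hbb-bt, the other adult beta globin, had 744 UMIs (17.6 CPM) and 557 UMIs (13.4 CPM), a log2 ratio of -0.40 (-0.56 to -0.24), and with equal weight 16.0 and 17.7 CPM, a log2 ratio of 0.14. The sign for Hbb-bt thus depended on the weighting, which also took Hba-a2 and Hbb-bs inside the fold of 0.5. In a sum, fewer red blood cells and less globin RNA per cell cannot be told apart.

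Between the sections, 3 of the 7 measured members had a log2 ratio of at most -0.5 with an interval below 0 (Hba-a2, Hbb-bs and Alas1), against 6.32% of the 12004 genes that reached 50 UMIs in the sum of the sections, and no member was past the fold upwards, against 2.86% of the genes. The median log2 ratio of all these genes was -0.05. After centering on the median gene, 615 genes were past the fold downwards and 435 upwards, in place of 759 and 343, and the same 3 members were past it. With equal weight per spot, or without the 1% of spots richest in globins, Alas1 alone remained past the fold. After thinning Alas1 and Alas2 were past it, and at a fold of 0.3 Hbb-bt and Alas2 joined the 3. Vascular smooth muscle markers were also lower in AEG-1-C75S, with a summed level of 30.6 and 8.85 CPM and 3 of 3 tested genes past the fold, cholangiocyte markers summed to 129 and 96.6 CPM, and platelet markers to 8.45 and 10.6 CPM. The part of these cells in the globin difference was not tested.

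**Figure D1:**
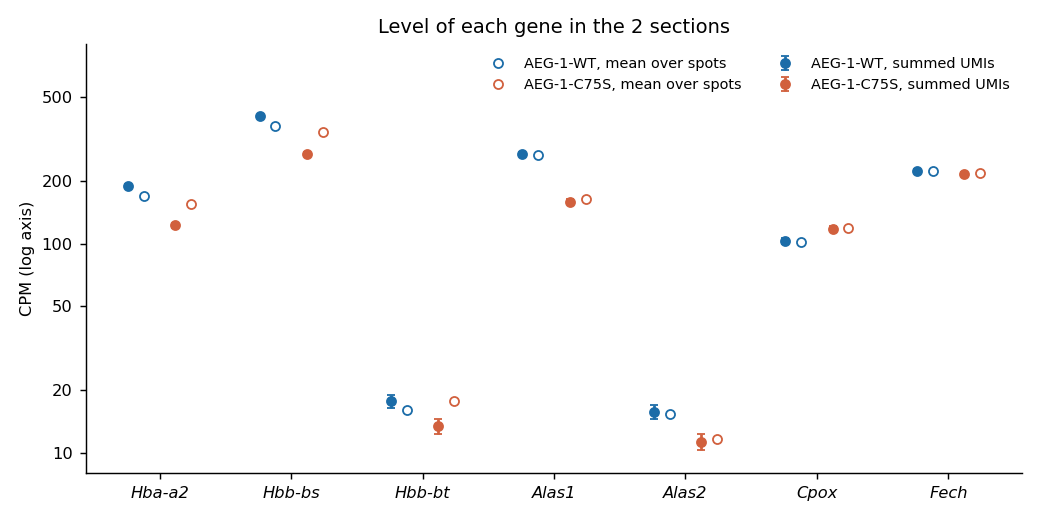
Level of each measured gene in the AEG-1-WT (blue) and AEG-1-C75S (orange) section in CPM on a log axis, from UMIs summed over spots (filled, bars are 95% exact Poisson intervals) and as the mean over spots with equal weight (open). The filled and open points lie apart for the 3 globins and close together for Alas1, Alas2, Cpox and Fech. Hbb-bs in AEG-1-C75S was 268 CPM summed and 342 CPM with equal weight.

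Globin UMIs were spread unevenly over the spots, although most spots had some. A UMI of Hbb-bs was found on 87.7% of the spots in AEG-1-WT (95% Clopper-Pearson interval 86.2 to 89.0) and on 91.2% of those in AEG-1-C75S (89.9 to 92.3). After thinning every spot to 3000 UMIs, the shares were 46.8% (44.8 to 48.9) and 46.1% (43.9 to 48.2), so the share of spots with Hbb-bs did not differ beyond counting error at equal depth. The median spot held 3 Hbb-bs UMIs in both sections, whereas the highest held 615 in AEG-1-WT against 146 in AEG-1-C75S. The 1% of spots with most Hbb-bs UMIs (24 spots) held 23.7% of them in AEG-1-WT, and 22 spots held 14.4% in AEG-1-C75S. For Hba-a2, the same share of spots held 22.9% and 14.7%, with a maximum of 266 and 55 UMIs on a spot. Alas1, by comparison, had 3.44% and 3.97% of its UMIs in its top 1% of spots, and Fech 3.12% and 3.31%.

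The spread of a gene over spots was also given as the variance over the mean of its UMIs, after scaling to the depth of each spot, which is near 1 for counting error alone. This index was 47.9 for Hbb-bs in AEG-1-WT against 23.1 in AEG-1-C75S, the highest among the 483 and 727 genes whose UMI sum was within a factor of 2 of its own. For Hba-a2 it was 20.02 and 11.6, again the highest, among 1039 and 1520 genes. Hbb-bt ranked 11 of 4456 and 4 of 4121, with 3.82 and 2.27. Alas1 (1.24 and 1.24), Cpox (1.18 and 1.23), Alas2 (1.15 and 1.08) and Fech (0.98 and 1.04) were much nearer to 1. Cpox was nevertheless above the 95th percentile of genes of like sum in both sections (percentiles of 1.166 and 1.196), and Alas2 was above it in AEG-1-WT (1.11). Fech was below the median of genes of like sum in both sections (1.05 and 1.05), which is close to counting error.

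**Figure D2:**
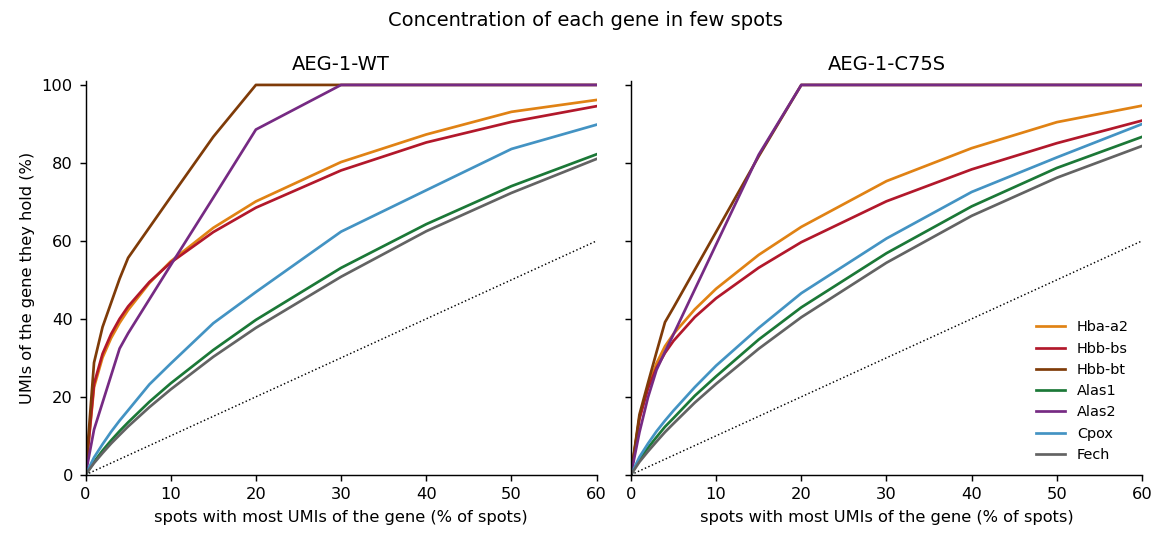
Share of the UMIs of each gene (y axis, %) that is held by the spots with most of its UMIs (x axis, % of spots, shown up to 60%), for AEG-1-WT (left) and AEG-1-C75S (right), with the dotted line for equal spots. Hbb-bs and Hba-a2 rise steeply at the left in both sections, with 43.3% and 34.5% of Hbb-bs UMIs in the top 5% of spots. The curves of Hbb-bt and Alas2, which had a UMI on fewer than 24% of the spots, reach 100% early.

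The proportion of alpha to beta globin UMIs stayed in a narrow range over groups of spots, and that of Hbb-bt to Hbb-bs in a wider one. Hba-a2 UMIs were 0.443 of the sum of Hbb-bs and Hbb-bt in AEG-1-WT (95% interval 0.431 to 0.455) against 0.435 in AEG-1-C75S (0.421 to 0.450). Over 5 groups of spots of equal size (quintiles), cut along the lobule or by depth, this ratio stayed between 0.422 and 0.458 in AEG-1-WT and between 0.402 and 0.453 in AEG-1-C75S. Hbb-bt was 0.0434 of Hbb-bs in AEG-1-WT (0.0403 to 0.0467) against 0.0498 in AEG-1-C75S (0.0457 to 0.0542), and its ratio ran from 0.0399 to 0.0504 and from 0.0412 to 0.0643 over the quintiles. As the probes may not separate the copies, these ratios describe the counts and not the copies' own RNA.

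Spots rich in Hbb-bs were described by setting the 5% of spots with the highest Hbb-bs CPM (116 in AEG-1-WT, 109 in AEG-1-C75S) against all others. Hbb-bs itself chose these spots, with the lowest at 1162 and 1088 CPM and the highest of the other spots at 1159 and 1083 CPM, so its own difference is no result. Hba-a2 was 1381 CPM in the rich spots against 119 CPM in the others in AEG-1-WT, and 1091 against 87.8 CPM in AEG-1-C75S, log2 differences of 3.54 (3.47 to 3.61) and 3.63 (3.55 to 3.72). Hbb-bt was higher by 3.71 and 3.22 on the log2 scale. Alas2, the synthase of red cell precursors, was 39.6 against 14.3 CPM in AEG-1-WT and 30.4 against 10.6 CPM in AEG-1-C75S, log2 differences of 1.46 (1.13 to 1.79) and 1.53 (1.04 to 1.98). Most Alas2 UMIs nevertheless lay outside the rich spots, which held 13.7% and 9.38% of them. The liver synthase Alas1 was higher by 0.22 (0.11 to 0.33) and 0.33 (0.16 to 0.50), whereas the intervals for Fech reached 0 in both sections (-0.07 and 0.03) and that of Cpox did so in AEG-1-WT (0.12, against 0.24 in AEG-1-C75S).

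Other genes also moved with the Hbb-bs-rich spots. Vascular smooth muscle markers (Acta2, Myh11, Tagln, Cnn1) summed to 87.4 against 27.3 CPM in AEG-1-WT and 26.3 against 8.23 CPM in AEG-1-C75S, log2 differences of 1.68 in each section. Cholangiocyte markers, which lie in portal tracts, were higher by 0.55 and 1.33, and platelet markers by 0.82 (0.26 to 1.34) and 1.07 (0.50 to 1.600). Kupffer cell markers were lower by -0.39 in both sections. The red blood cell markers without the globins summed to 90.1 against 62.0 CPM in AEG-1-WT and 68.4 against 59.98 CPM in AEG-1-C75S, and the latter interval reached 0 (-0.11 to 0.48). Of the rich spots, 28.4% in AEG-1-WT against 44.0% in AEG-1-C75S lay in the most periportal quintile, and 31.0% and 22.0% in the most pericentral one. The part of vessel content in the globin level of a section was not tested.

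The globins moved with the depth of a spot in opposite directions in the 2 sections. Within each section, spots were cut by their total UMIs into 5 groups of equal size (quintiles). In AEG-1-WT, Hbb-bs was 283, 279, 313, 406 and 584 CPM from the shallowest to the deepest quintile. In AEG-1-C75S it was 591, 388, 288, 227 and 155 CPM. The log2 difference between the outer quintiles was 1.04 in AEG-1-WT (0.96 to 1.12), with the deepest spots highest, and -1.93 in AEG-1-C75S (-2.02 to -1.84), with the shallowest spots highest. Hba-a2 (1.06 and -1.91) and Hbb-bt (0.84 and -2.34) took the same course. Without the 1% of spots richest in globins the outer difference for Hbb-bs was 0.63 and -1.57, and without the 5% of spots richest in Hbb-bs it was 0.65 and -1.15, so the opposite signs did not rest on those spots.

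Counted per spot rather than as CPM, globins were nearly flat in AEG-1-C75S. The 3 globins together had 6.92, 8.199, 8.30, 8.14 and 7.40 UMIs per spot from the shallowest to the deepest quintile there, while the median total UMIs of those spots went from 7763 to 30710. In AEG-1-WT they had 5.18, 6.20, 8.05, 12.1 and 24.4 UMIs per spot, with median totals from 12533 to 25543. The median spot showed the same pattern, with 2, 3, 5, 7 and 11 globin UMIs in AEG-1-WT and 4, 5, 5, 5 and 5 in AEG-1-C75S. The synthesis genes moved less on the CPM scale, with outer log2 differences for the 2 sections of 0.19 and -0.14 for Alas1, 0.26 and -0.20 for Alas2, 0.25 and -0.11 for Cpox, and -0.01 and 0.02 for Fech. The signs for Alas1, Alas2 and Cpox were opposite as for the globins, but the intervals for Alas2 reached 0 in both sections and those of Alas1 and Cpox did so in AEG-1-C75S. Fech was between 216 and 226 CPM in each of the 5 AEG-1-WT quintiles and between 212 and 222 CPM in those of AEG-1-C75S.

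**Figure D3:**
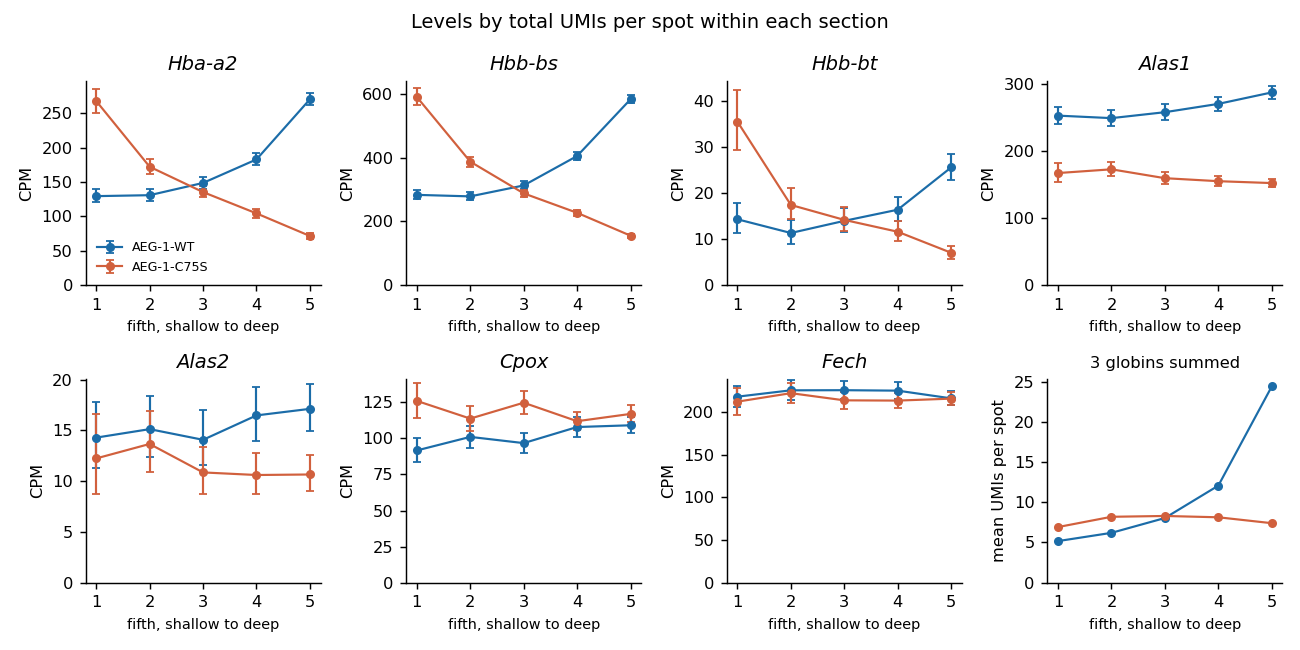
CPM of each gene by quintile of total UMIs per spot (1 is the shallowest, 5 the deepest) in AEG-1-WT (blue) and AEG-1-C75S (orange), with 95% exact Poisson intervals, and in the last panel the mean UMIs per spot of the 3 globins together. The 2 sections cross for each globin, with Hbb-bs from 283 to 584 CPM in AEG-1-WT and from 591 to 155 CPM in AEG-1-C75S, and stay level for Fech.

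edgeR's quasi-likelihood test of the deepest against the shallowest quintile, with the section as block, called 0 of the 7 members in either direction, and 0 had an unadjusted p under 0.05. The Benjamini-Hochberg adjusted p was 0.994 for Hbb-bs, with a fitted log2 difference of -0.40 that averaged over opposite signs. Of the 11510 genes tested, 1 was called higher in the deepest quintile (0.00869%) and 1 lower (0.00869%), 482 had an unadjusted p under 0.05, and DESeq2 called 0. The 2 called genes, named here after their values were seen, were the immunoglobulin heavy chain genes Ighg2b (higher) and Igha (lower), which were at 0 UMIs in the shallowest AEG-1-WT spots. Counts were also simulated with the same change in both sections, which does not cover genes that move opposite ways in the sections. All genes had the same dispersion there, and only genes above a minimum UMI sum were changed, so the uneven spread of the globins is not covered either. In that simulation the test called 94% to 100% of genes changed by 1 on the log2 scale and 38% to 42% of those changed by 0.5. It also made 4 false calls among the unchanged genes. In the middle lobule quintile alone, the fit called Hbb-bs (0.59, adjusted p = 0.013) although the sections again went opposite ways (2.15 and -1.32), so that call describes no common direction.

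Because depth was distributed differently, the sections were also compared in quintiles of total UMIs cut over both sections together. The log2 ratio (AEG-1-C75S to AEG-1-WT) for Hbb-bs was 0.97 (0.86 to 1.07) in spots of 385 to 13111 UMIs, 0.44, -0.16 and -1.16 in the next 3 bins, and -1.66 (-1.72 to -1.60) in spots of 24248 to 49781 UMIs. In the first of these bins the mean total was still 11530 UMIs per spot in AEG-1-WT and 8777 UMIs per spot in AEG-1-C75S, while in the other 4 bins the means were close. Hba-a2 went from 0.92 to -1.71 and Hbb-bt from 1.05 to -1.61. Over 1454 spots per section matched on total UMIs, Hbb-bs had a log2 ratio of -0.75. The direction of the globin difference between the sections thus depended on which depths were compared. Alas1 had the same sign in each of the 5 bins, from -0.52 to -0.90, and the Fech interval reached 0 in each (-0.11 to 0.03).

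Cholangiocyte, smooth muscle and platelet markers also moved with depth in AEG-1-C75S, although edgeR called 0 genes of these lists by depth. Endothelial markers did not follow them there, with 202, 184, 190, 194 and 194 CPM from the shallowest to the deepest quintile. In AEG-1-C75S, 48.6% of the Hbb-bs-rich spots lay in the shallowest quintile and 3.67% in the deepest, whereas in AEG-1-WT 18.1% and 27.6% did. Platelet markers in AEG-1-C75S fell in the same order as the globins over the first quintiles, with 18.2, 14.8, 8.91, 8.46 and 9.42 CPM, and in AEG-1-WT were between 7.78 and 8.83 CPM. Cholangiocyte markers were 175 CPM in the shallowest AEG-1-C75S quintile and between 64.7 and 108 CPM in the others. Smooth muscle markers were 19.1 CPM in that quintile and between 6.59 and 9.12 CPM in the others. In AEG-1-WT they were 40.003, 17.6, 23.8, 32.0 and 36.6 CPM from the shallowest to the deepest quintile, highest where Hbb-bs was near its lowest. The red blood cell markers without the globins were between 58.5 and 63.2 CPM in all AEG-1-C75S quintiles. Most of that sum was Car1, Bpgm, Tmcc2 and Tspan33, which other cells also express. Some markers at a few CPM were lower in the deepest than in the shallowest AEG-1-C75S quintile. These were Sptb (2.09 and 0.88 CPM from shallowest to deepest), Klf1 (2.09 and 1.53), Tal1 (2.69 and 1.31) and Epor (3.28 and 1.82). Nfe2 went the other way (1.49 and 1.75), and all of these rested on few UMIs. The part of these markers in the globin trend was not tested.

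Alas1, which sets the rate of haem synthesis in liver, was lower in AEG-1-C75S by every weighting. It had 11303 UMIs in AEG-1-WT (268 CPM, 263 to 273) against 6607 in AEG-1-C75S (159 CPM, 155 to 162), a log2 ratio of -0.75 (-0.80 to -0.71). With equal weight per spot the levels were 264 and 163 CPM. The ratio was between -0.57 and -0.85 in each quintile along the lobule, and between -0.70 and -0.77 under the 10 other scalings and spot selections. After thinning to 3000 UMIs, Alas1 was found on 52.8% of the spots in AEG-1-WT (50.7 to 54.8) and on 36.8% of those in AEG-1-C75S (34.7 to 38.8). These intervals do not overlap, but they cover counting error within 2 libraries and not the spread between animals.

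The other synthesis genes differed less. Alas2 had 664 UMIs (15.7 CPM, 14.5 to 17.0) in AEG-1-WT and 469 UMIs (11.3 CPM, 10.3 to 12.3) in AEG-1-C75S, a log2 ratio of -0.48 (-0.66 to -0.31), just inside the fold, and past it after thinning (-0.59). Cpox had 4347 UMIs (103 CPM) and 4895 UMIs (117 CPM), a log2 ratio of 0.19 (0.13 to 0.25), and was the only member with an interval above 0. Fech had 9362 UMIs (222 CPM) and 8979 UMIs (215 CPM), a log2 ratio of -0.04 whose interval reached 0 (-0.08 to 0.00). Among the members, then, Alas1 was low in AEG-1-C75S beside a Fech that stayed level and a Cpox that was slightly high.

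The other enzymes of the chain were all inside the fold. Of 5 such genes, 0 were past it in either direction, against 6.32% of all genes downwards and 2.86% upwards. Their median log2 ratio was -0.16 against -0.05 for all genes. Alad, which joins 2 molecules of aminolevulinate, had 207 CPM in AEG-1-WT and 172 CPM in AEG-1-C75S, a log2 ratio of -0.26 (-0.31 to -0.22). Of 12 genes of haem and precursor transport (such as the glycine importer Slc25a38 and the haem exporter Flvcr1), 0 were past the fold, with a median of -0.18. Of 8 genes of haem breakdown and scavenging, 0 were past it, with a median of -0.02. The haemoglobin receptor Cd163 came closest, with 44.4 and 32.1 CPM and a log2 ratio of -0.47 (-0.57 to -0.36). Haem oxygenase Hmox1, which opens the haem ring, had 18.7 and 25.6 CPM and a log2 ratio of 0.45 (0.32 to 0.59).

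**Figure D4:**
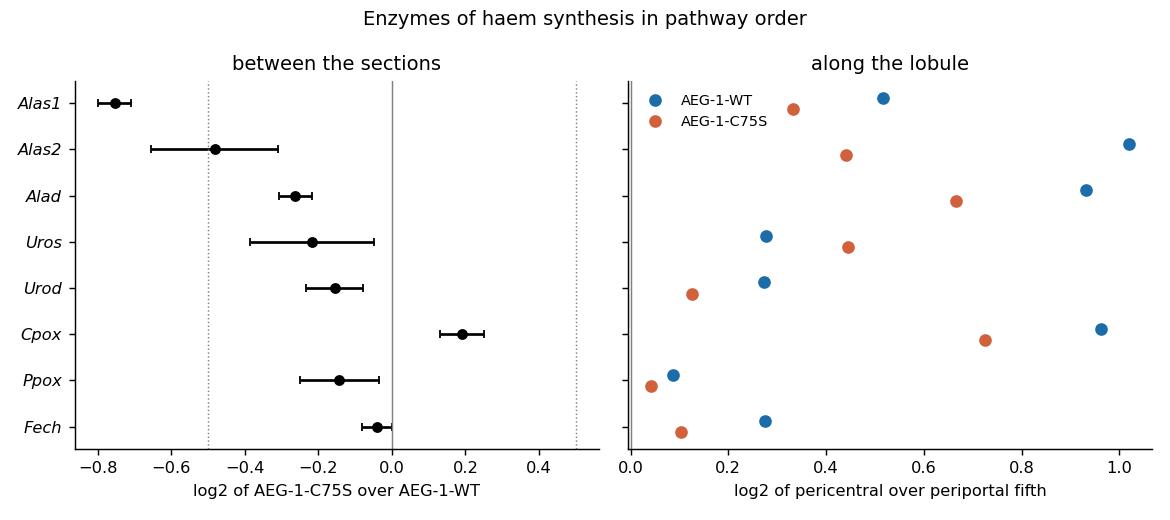
Genes of haem synthesis enzymes from the first step (top) to the last (bottom), with the log2 ratio (AEG-1-C75S to AEG-1-WT) and its 95% interval (left, dotted lines at the fold of 0.5) and the log2 ratio of the pericentral over the periportal quintile in each section (right, blue AEG-1-WT, orange AEG-1-C75S). Alas1 lies farthest to the left at -0.75, and all 8 genes shown lie above 0 along the lobule in both sections before TMM scaling.

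Genes that control ALAS1 or sense haem held both directions. Of 17, 1 was past the fold downwards, against 6.32% of all genes, and 3 upwards, against 2.86%, with a median of -0.09. The 3 upward genes were Clpx, the mitochondrial unfoldase that acts on ALAS1 (62.8 and 150 CPM, log2 ratio 1.26, 1.19 to 1.32), and the clock genes Arntl (5.49 and 17.9 CPM, 1.70) and Npas2 (0.52 and 2.04 CPM, 1.97). The downward gene was Nr1d2 (112 and 75.9 CPM, -0.56), a haem-binding repressor of the clock. Npas2 rested on 22 and 85 UMIs. The activators Ppargc1a and Foxo1 were inside the fold, with 13.0 and 10.6 CPM and with 63.0 and 52.1 CPM. The time of day of tissue collection is not given in the sources used here. Of 14 haem proteins of hepatocytes with a row, 1 was past the fold downwards (Cyp7a1, the first enzyme of bile acid synthesis, 185 and 67.5 CPM, -1.45) and 3 upwards (Cyp4a10 0.82, Cyp4a14 0.74 and Cyp8b1 0.77).

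Along the lobule, Cpox, Alas1 and Alas2 were higher towards the central vein and the globins had no common direction. Spots of each section were cut into quintiles by the ratio of Cyp2f2 (periportal) to Cyp2e1 (pericentral) UMIs. Cpox was 73.6, 84.2, 99.4, 115 and 143 CPM from the most periportal to the most pericentral quintile of AEG-1-WT, and 95.6, 90.8, 115, 129 and 158 CPM in AEG-1-C75S. Alas1 was 234, 238, 246, 287 and 335 CPM in AEG-1-WT, and 158, 133, 145, 159 and 199 CPM in AEG-1-C75S. Alas2 was 12.1, 9.34, 16.1, 17.0 and 24.5 CPM in AEG-1-WT, and 11.1, 8.43, 9.51, 12.3 and 15.05 CPM in AEG-1-C75S. The pericentral quintile was the highest of the 5 for all 3 genes in both sections, while in AEG-1-C75S the second quintile was the lowest.

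edgeR's quasi-likelihood test of the most pericentral against the most periportal quintile, with TMM scaling and the section as block, called 3 of the 7 members higher in the pericentral quintile, against 8.2% of the 11261 genes tested, and none lower, against 7.98%. The log2 difference was 0.73 for Cpox (adjusted p = 9.5e-07), 0.33 for Alas1 (adjusted p = 0.00047) and 0.66 for Alas2 (adjusted p = 0.0064). The 2 sections, which differ in genotype, were the replicates here, and the difference had the same sign in both for each of the 3 genes. Before TMM scaling it was 0.96 (0.82 to 1.11) and 0.72 (0.60 to 0.85) for Cpox, 0.52 (0.43 to 0.60) and 0.33 (0.23 to 0.44) for Alas1, and 1.02 (0.66 to 1.39) and 0.44 (0.04 to 0.85) for Alas2. Without the 5% of spots richest in Hbb-bs, Alas2 still differed by 1.14 in AEG-1-WT against 0.45 in AEG-1-C75S. The Alas2 call was lost with DESeq2 (log2 difference 0.64, adjusted p = 0.38) and after thinning (0.44, adjusted p = 0.61). All 3 calls were lost without the section block, with differences of nearly the same size (Alas1 0.34, adjusted p = 0.74, Cpox 0.73, adjusted p = 0.11, Alas2 0.66, adjusted p = 0.36).

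Fech was nearly level, with 200.8, 211, 217, 236 and 243 CPM in AEG-1-WT and 211, 208, 210, 222 and 227 CPM in AEG-1-C75S. Its log2 difference of 0.09 did not pass the edgeR test (adjusted p = 0.34). It did so with total counts in place of TMM (0.19, adjusted p = 0.0031), a scaling that moved the median of all genes by 0.10 and gave 2148 genes higher and 740 lower in place of 923 and 899. Relative to that median, Fech was thus not set apart.

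The globins went opposite ways along the lobule too. Hbb-bs was 388, 338, 485, 310 and 514 CPM from periportal to pericentral in AEG-1-WT, and 395, 213, 202, 229 and 307 CPM in AEG-1-C75S. Between the outer quintiles it was higher pericentrally by 0.40 (0.34 to 0.47) in AEG-1-WT and lower by -0.36 (-0.44 to -0.29) in AEG-1-C75S, and the edgeR adjusted p was 0.75. In the middle AEG-1-WT quintile, its level with equal weight per spot was 376 CPM. In AEG-1-C75S both ends of the axis were above the middle. Hba-a2 differed by 0.51 and -0.39 and Hbb-bt by 0.36 and -0.46. Without the 5% of spots richest in Hbb-bs, the AEG-1-C75S difference for Hbb-bs was -0.08 with an interval that reached 0, and the AEG-1-WT difference was 0.36. With an axis of 4 periportal and 2 pericentral genes the fit called Hba-a2 (-0.19, adjusted p = 0.0070) and Hbb-bs (-0.21, adjusted p = 0.00021), and with outer terciles Hbb-bs (-0.11, adjusted p = 0.024), but the signs of the sections were opposite there as well.

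**Figure D5:**
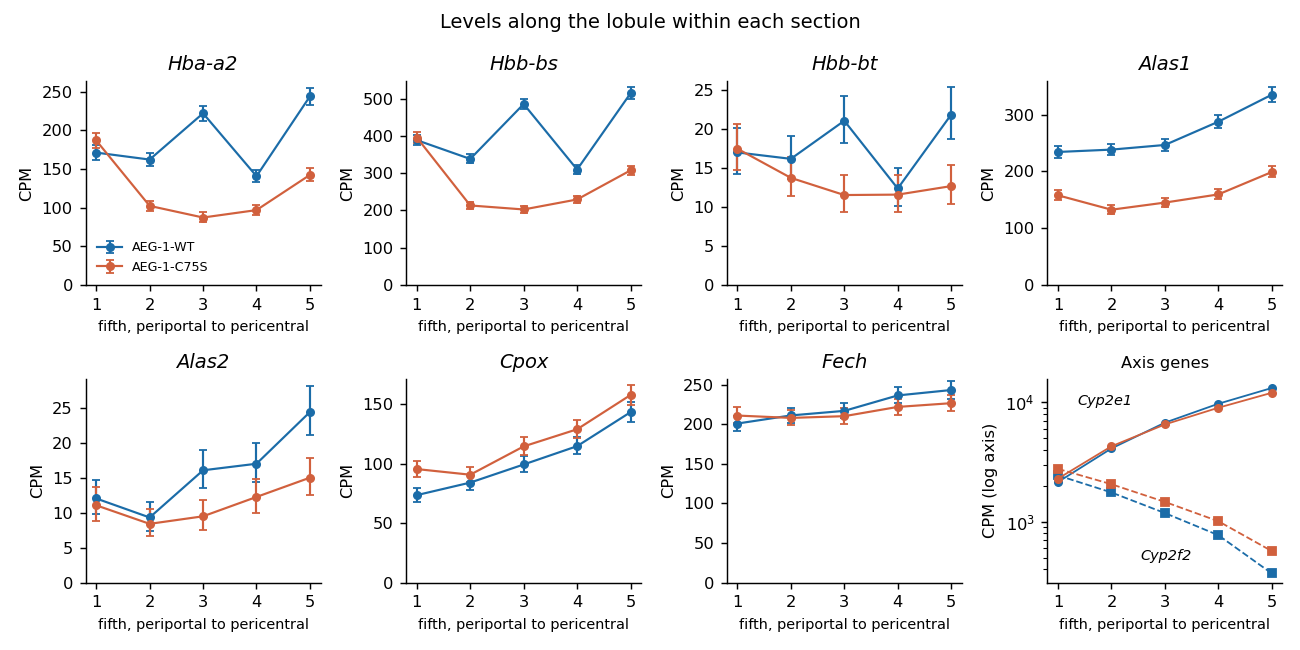
CPM of each gene by quintile of the spots from periportal (1) to pericentral (5) in AEG-1-WT (blue) and AEG-1-C75S (orange), with 95% exact Poisson intervals, and in the last panel the 2 genes that set the axis, on a log axis. Cpox, Alas1 and Alas2 end highest at quintile 5 in both sections, and Hbb-bs and Hba-a2 follow no common course.

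Genes of neighbouring steps of haem metabolism were also compared along the lobule, where 8.2% of all genes tested were called higher and 7.98% lower. Of the 5 other synthesis enzymes, 1 was called higher in the pericentral quintile and 0 lower: Alad, with a log2 difference of 0.70, at 148 and 283 CPM in the outer quintiles of AEG-1-WT and 142 and 226 CPM in those of AEG-1-C75S. Their median was 0.20 against 0.00 for all genes. Of 12 transport genes, 5 were called higher and 0 lower, with a median of 0.34: Slc25a37, the mitochondrial iron importer (0.58), Slc25a38 (0.37), Abcb6 (0.38), Abcg2 (0.43) and Flvcr2 (0.76). Of 14 haem proteins, 11 were called higher and 0 lower, with a median of 0.84, among them Cyp1a2 (2.20), which is also a pericentral marker, and Cyp7a1 (1.71). Of the 8 genes of breakdown and scavenging, biliverdin reductase Blvrb was called higher (1.01), and haemopexin Hpx (-0.94), haptoglobin Hp (-0.26) and the haemoglobin receptor Cd163 (-0.38) were called lower. Of the 17 control genes, Nr1i3 (0.74) and Nr1d1 (0.27) were called higher and Ppargc1a (-0.70) and Pgrmc2 (-0.24) lower, counts near the shares of all genes. Among the red blood cell markers tested, 2 of 10 were called higher, Sptb (2.56) and Car1 (0.88), and 0 lower. Sptb was at 0.38 CPM in AEG-1-WT and 0.37 CPM in AEG-1-C75S in the periportal quintile, so its difference rested on few UMIs. Car1 is among the markers that other cells also express.

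Over single spots, the member most like Hbb-bs was Hba-a2. Among 4013 genes with a mean of at least 0.5 UMIs per spot in both sections, Pearson's r of log2(CPM + 1) with Hbb-bs was 0.45 in AEG-1-WT against 0.38 in AEG-1-C75S for Hba-a2. Trf and Acaa1b, also among the 5 most alike, each had a mean r of 0.14. For Alas1 the most alike genes included Car3, Aldh2, Cyp2c29 and Akr1c6, with a mean r of 0.16 to 0.18. For Cpox they included Mup17, Rgn, Car3 and Cyp2e1 (0.18 to 0.20), and for Fech they were Msrb1, C4bp, Cyp1a2, Sar1b and Ddx5 (0.11 to 0.13). Alas2 had an r of 0.14 with Hbb-bs in AEG-1-WT against 0.06 in AEG-1-C75S. All spots of a section share a library and differ in depth, counts per spot were low, and these values are a description.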

How the data were processed

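RNA of 1 AEG-1-WT and 1 AEG-1-C75S liver section was measured on Visium spots. The tables that the authors deposited came from Space Ranger 2.0.1, with mm10 as the genome build, and hold raw UMI counts of 19465 genes per spot under tissue, without normalization. Seurat 4.3.0 is also named in the submitters' processing notes. No column of another sample was present (0 columns). The first of duplicate symbols (11) was used.

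Spots with more than 50000 UMIs were left out, as in the study's methods. Python 3.11.15 (scipy 1.17.1, numpy 2.4.6, pandas 2.3.3) gave sums and 95% exact Poisson and Clopper-Pearson intervals, which cover counting error only. For a ratio, the Clopper-Pearson interval of one sum in the total of both was converted to log2. A gene was past the fold at a log2 ratio of 0.5 in size with an interval off 0, among genes with 50 UMIs or more. Outer quintiles by (Cyp2f2 + 1)/(Cyp2e1 + 1) or by total UMIs were summed per section and tested with edgeR 4.0.16 (TMM, quasi-likelihood, section as block, Benjamini-Hochberg adjusted p under 0.05), with DESeq2 1.42.0 as an alternative. The section stood as replicate, with 1 residual degree of freedom per gene, and the 2 sections differ in genotype. edgeR shares information on spread over all genes, so a p-value does not measure the spread of a single gene between the sections alone. A gene whose sections went opposite ways could thus be called, as Hbb-bs was with another axis. Of 1822 genes called along the lobule, 1804 had the same sign in both sections.

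The members, lists, tests and alternatives were chosen with earlier results of these data known. The named genes were the members, the genes of the written lists and, for Hbb-bs, Alas1, Cpox and Fech, the 5 most alike genes, of which some are not reported here. Alternatives are in the closing section. Leaving out the 5% of spots richest in Hbb-bs was chosen after seeing the data. In simulations that held counting error alone, the ratio intervals covered the true value for 95.6% of 12004 genes. This share does not cover the uneven spread of globin UMIs over spots. edgeR was also run on counts simulated along the lobule with the same change in both sections and the same dispersion for all genes. It called 98% to 100% of genes changed by 1 on the log2 scale and 38% to 58% of those changed by 0.5, with 4 false calls among the unchanged genes. Spot coordinates and protein sequences were not used here.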

Additional observations from a re-analysis of the deposited data

Results flagged for a closer look

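The globins moved in opposite directions in the 2 sections under the same contrast, with counting intervals off 0 on both sides. These intervals do not cover the uneven spread of globin UMIs over spots. From the shallowest to the deepest quintile of spots, the log2 difference was 1.06 in AEG-1-WT against -1.91 in AEG-1-C75S for Hba-a2, 1.04 and -1.93 for Hbb-bs, and 0.84 and -2.34 for Hbb-bt. From the periportal to the pericentral quintile, it was 0.51 and -0.39 for Hba-a2, 0.40 and -0.36 for Hbb-bs, and 0.36 and -0.46 for Hbb-bt. Without the 5% of spots richest in Hbb-bs, the periportal to pericentral difference in AEG-1-C75S was -0.06 for Hba-a2, -0.08 for Hbb-bs and -0.30 for Hbb-bt. All of these intervals reached 0. By depth, the signs stayed opposite for each globin without those spots, but the AEG-1-WT interval for Hbb-bt reached 0 (0.41, -0.08 to 0.91). With 1 section for each genotype, the difference between the sections was not tested. The spots left out for more than 50000 UMIs (7 and 4) held no member above its level in the other spots of the section beyond the counting intervals. Hbb-bs was below its level there, with 310 CPM (256 to 372) against 406 CPM in AEG-1-WT. In AEG-1-C75S it had 151 CPM (104 to 212) in the left-out spots against 268 CPM.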

How the results depend on the processing

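Of the 7 members, 3 were past the fold between the sections. This count was 1 with equal weight per spot, 1 without the 1% of spots richest in globins, 1 without the 5% richest in Hbb-bs, 5 at a fold of 0.3 and 0 at a fold of 1, and stayed within 1.5 times otherwise. Along the lobule, 3 members were called, 5 with another axis and 0 without the section block. By depth, 0 were called, and 1 in the middle lobule quintile alone. Over all genes, 1102 were past the fold between the sections (2362 at 0.3, 242 at 1, 733 with a minimum of 200 UMIs). Along the lobule, 1822 genes were called (603 with DESeq2, 153 without the section block, 615 after thinning, 2888 with total counts). By depth, 2 genes were called (0 to 6 over the alternatives). Between the sections, Hba-a2, Hbb-bs and Alas1 kept their sign under the alternatives run, and along the lobule Cpox, Alas1 and Alas2 did. By depth, the fitted difference of Hbb-bs was -0.40 and turned to 0.59 in the middle lobule quintile. The lobule and depth fits paired the outer quintiles of each section. Between the genotypes, no paired analysis was possible because each genotype had 1 section. Leaving out either section left 1 section and no test of the lobule or of depth. The cause of each change was not tested. Alas2 and Hbb-bt, with 469 to 744 UMIs per section, had the widest intervals among the measured members.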
